A study of Saccharomyces cerevisiae with 3 samples.

Results

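The genes described here encode 32 subunits of the yeast 26S proteasome, together with RPN4, the transcription factor gene that drives them. They were chosen by gene symbol, as the probe sets annotated to 1 of these 33 genes alone, out of 5656 genes with such a probe set. All 33 were found, on 38 probe sets, and all 33 lay above the signal floor on each of the 3 arrays. RPT6 was set against the other 31 subunits because its difference between the doses was already known from these same data, so its values are a description and support nothing by themselves.

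Saccharomyces cerevisiae S288c, the haploid reference laboratory strain of baker's yeast, was exposed for 5 h to 15 µM tomatidine, to 7.5 µM tomatidine, or to the solvent dimethylformamide (DMF) alone, and both tomatidine cultures also received DMF. Tomatidine is the aglycone of the tomato defence compound tomatine. The total RNA of each culture was read on 1 Affymetrix array, so the 3 arrays have no replicates and nothing below is tested, and their number limits the precision of every value. Of the mating type genes, 4 of 4 marker genes of MATalpha cells, the mating type of S288c, lay above the floor (scaled signals 265 to 1938), and 6 of 6 MATa markers stayed below it on every array.

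The proteasome is the large protease that degrades proteins tagged with ubiquitin. Its barrel-shaped core particle has outer rings of alpha subunits, which gate the entrance, and inner rings of beta subunits, some of which cut the substrate. A regulatory particle caps the barrel. Its base holds a ring of ATPases that unfold the substrate and thread it inward, and its lid removes the ubiquitin. In yeast, Rpn4 binds a shared element in the promoters of most of these genes and is itself degraded within minutes by the proteasome, so that a shortage of proteasome activity raises Rpn4 and, through it, the subunit genes together.

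Signals were scaled so that the median non-control probe set was equal on the 3 arrays. The floor was the 40th percentile of those signals over all arrays together, 18.2, and ratios were taken as log2 of the floored signals. A gene was counted as higher or lower when the ratio reached 2-fold, a rule of size that stands in for a test. Levels of different genes are not compared, since each probe set has its own brightness. The scaled signals of the 33 genes ran from 89.6 to 487, at least 4.91 times the floor, so no ratio among them is a lower bound.

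The direction against the control depends on this scaling. Spike controls of bacterial and phage origin, added in the laboratory, showed more signal on the control array after scaling, by 1.78-fold against 15 µM and 1.61-fold against 7.5 µM. With the arrays scaled on 8 of these spikes instead, the median of all genes moved to 0.74 at 15 µM and 0.59 at 7.5 µM over control, and that of the proteasome subunits to 0.83 and 0.76. Every subunit but RPT6 then lay above the control at 15 µM, and all 32 at 7.5 µM, so a value below 0 against the control, as given below for other subunits, is one relative to the median gene. Relative to all genes, the subunit median lay 0.08 and 0.17 higher with the spikes, and 0.02 and 0.11 higher with the array median.

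Relative to the median gene, the proteasome genes as a group stayed near the control at both doses, and RPT6 was the exception at 15 µM. The median log2 ratio of the 32 subunits was -0.01 at 15 µM over control, 0.07 at 7.5 µM over control and -0.06 at 15 µM over 7.5 µM. The medians over all 4723 genes measured above the floor were -0.03, -0.03 and 0. At 15 µM, 16 of 32 subunits lay above the control and 16 below, where 46.3% of all genes lay above and 52.4% below. At 7.5 µM, 22 of 32 lay above and 10 below, where 44.8% and 53.7% of all genes did. Between the doses, 13 of 32 were higher at 15 µM and 19 lower, where 48.1% and 49.7% of all genes were. With the arrays scaled on the spikes, 20 of 32 were higher at 15 µM. The subunit median was then 0.09, still below the median of all genes, 0.14.

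At 15 µM over control, 1 of 32 subunits, RPT6, was at least 2-fold lower, against 1.14% of all genes, and none was at least 2-fold higher, against 2.73% of all genes. With the arrays scaled on the spikes RPT6 was at -0.35, so that 0 subunits were 2-fold lower, and 9 were 2-fold higher. Of the 4829 genes above the floor under that scaling, 1288 were 2-fold higher and 7 lower. At 7.5 µM over control, 1 of 32, SCL1, was at least 2-fold higher, against 1.99% of all genes, and none was lower, against 0.614%. With the spikes 4 subunits were 2-fold higher, where 798 of 4829 genes were. Between the doses, RPT6 was again the 1 subunit at least 2-fold lower at 15 µM, against 0.296% of all genes, and none was higher, against 0.72%. With 32 subunits, 1 gene is 3.13% of the group, the smallest share above 0 that it can show.

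With the lower limit of 1.5-fold, the subunits beyond it were RPT6 alone at 15 µM over control (6.9% of all genes were lower by that size and 8.26% higher). At 7.5 µM over control SCL1 and PUP2 were higher (8.62% of all genes), and no subunit was lower (5.21%). Between the doses RPT6 and RPN13 were lower at 15 µM (3.09% of all genes), and no subunit was higher (4.07%). With the arrays scaled on the spikes, 29 subunits were at least 1.5-fold higher at 15 µM over control and 26 at 7.5 µM. The median of all genes was itself past 1.5-fold under that scaling, at log2 ratios of 0.74 and 0.59. Relative to the median gene, the other subunits kept close to the control array. At 15 µM, 25 of 32 subunits lay less than 1.2-fold from it, where 50.8% of all genes did, and at 7.5 µM it was 23 of 32, where 53.1% did. Between the doses 23 of 32 lay that close together, where 62.9% did. All genes include many with signals near the floor, while the subunits were all well above it, and the part of signal level in this difference was not tested.

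**Figure D1:**
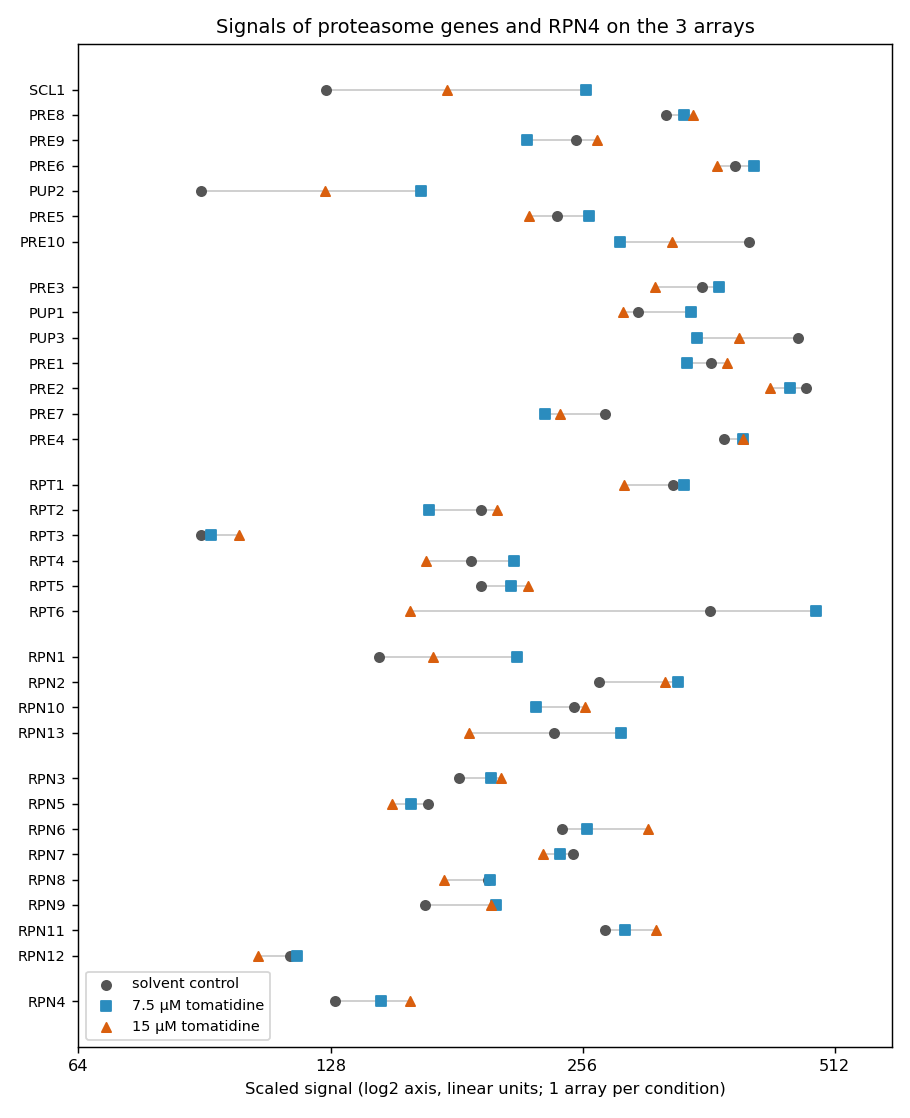
Scaled signal (log2 axis) of each of the 33 genes on the solvent control (circles), 7.5 µM (squares) and 15 µM (triangles) arrays, 1 array per condition, grouped from top to bottom as alpha ring, beta ring, ATPases, other base subunits, lid and RPN4. RPT6 spans the widest range, from 159 at 15 µM to 487 at 7.5 µM, and SCL1 and PUP2 are lowest on the control array.

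RPN4 itself differed by less than 1.5-fold relative to the median gene. Its scaled signal was 130 on the control array, 147 at 7.5 µM and 159 at 15 µM. The control array was the lowest of the 3 and the 15 µM array the highest. The log2 ratio was 0.30 at 15 µM (1.23-fold) and 0.18 at 7.5 µM (1.14-fold), both under the 1.5-fold limit. With the arrays scaled on the spikes these became 1.13 and 0.87, which is 0.39 and 0.28 above the median of all genes under that scaling. The array reads messenger RNA, so the amount of the short-lived Rpn4 protein is not seen here.

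The ATPase ring of the base holds Rpt1 to Rpt6, which sit in the ring as the pairs Rpt1 with Rpt2, Rpt6 with Rpt3 and Rpt4 with Rpt5. RPT6 had a scaled signal of 363 on the control array, 487 at 7.5 µM and 159 at 15 µM. The 15 µM array was thus the lowest and the 7.5 µM array the highest, with the control between them. Against the control RPT6 was 2.28-fold lower at 15 µM (log2 ratio -1.19) and 1.34-fold higher at 7.5 µM (0.42), and between the doses it was 3.05-fold lower at 15 µM (-1.61).

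The other ATPase genes showed smaller differences on their brightest probe sets. RPT3, whose product is the ring partner of Rpt6 and docks into the alpha ring, had scaled signals of 89.7, 92.1 and 99.4 on the control, 7.5 µM and 15 µM arrays. RPT1 had 329, 338 and 287 in the same order. RPT2, whose tail opens the gate of the core particle, had 193, 168 and 202. For these genes the highest array was at most 1.21-fold above the lowest. RPT4 had 188, 212 and 166, the 15 µM array being the lowest as for RPT6, with a log2 ratio between the doses of -0.35. RPT5, another subunit whose tail docks into the alpha ring, had 193, 210 and 220 on its brightest probe set. At 15 µM over control the 5 ATPase genes other than RPT6 ran from -0.20 to 0.19, with a median of 0.07.

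RPT5 is the 1 ATPase gene with more than 1 probe set in the annotation, and its probe sets disagreed. Besides the brightest, another had scaled signals of 113, 95 and 69.0 on the control, 7.5 µM and 15 µM arrays, and a dimmer one had 52.7, 32.8 and 25.8. Both were highest on the control array and lowest at 15 µM, with log2 ratios at 15 µM over control of -0.71 and -1.03 where the brightest gave 0.19. The last was below the floor on all 3 arrays. The value of RPT5 therefore depends on the probe set, and with the log2 signals of all 4 averaged it was the lowest of the 31 other subunits at 15 µM, at -0.39. RPT6 has 1 probe set in the annotation, and probe sets without an entry were not examined for a second reading of it.

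Set against the other 31 subunits, RPT6 was lower by 1.23 log2 units than their median at 15 µM over control and lower by 1.56 between the doses, while at 7.5 µM over control it was higher than their median by 0.35. The log2 ratios of the 31 ran from -0.34 (RPN13) to 0.49 (PUP2) at 15 µM over control, and from -0.60 (RPN13) to 0.28 (PRE9) between the doses. RPT6 lay outside both ranges, 0.85 and 1.01 log2 units beyond their lower ends. At 7.5 µM over control it lay inside the range of -0.51 (PRE10) to 1.03 (SCL1), as the fourth highest of the 32. Between the doses RPT6 had the lowest ratio of all 4723 genes, and at 15 µM over control it was number 36 from the lowest. For scale, the ratios of different probe sets of the same gene, over 173 genes with more than 1 probe set above the floor, had a pooled SD of 0.38 log2 units at 15 µM over control and 0.29 between the doses. On each array the probe sets of a gene read the same RNA sample, so variation from culture to culture is not in that spread.

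**Figure D2:**
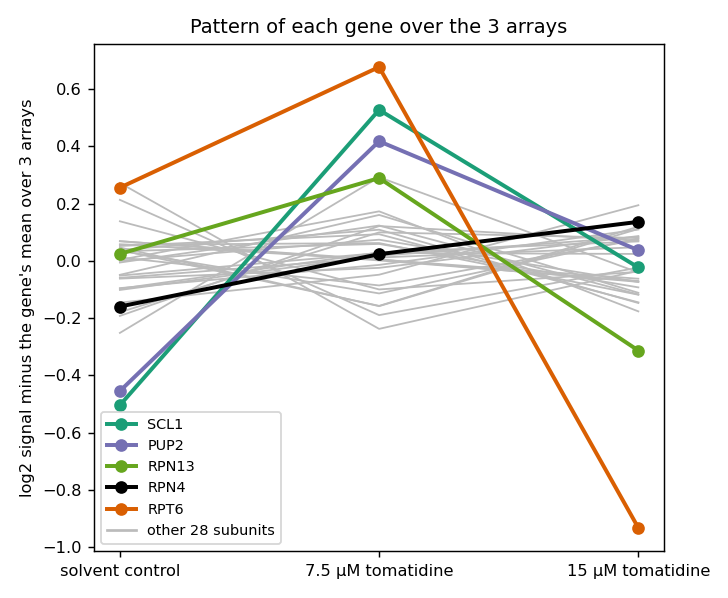
Log2 scaled signal of each gene minus its mean over the 3 arrays (vertical axis, log2 units) on the solvent control, 7.5 µM and 15 µM arrays, with 1 line per gene. RPT6 falls from the top at 7.5 µM to the bottom at 15 µM, SCL1 and PUP2 start lowest on the control array, RPN13 and RPN4 are drawn in colour, and the other 28 subunits (grey) run close together.

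The genes next to RPT6 along its chromosome did not share this size of difference. On one side lie TIF4632, a translation initiation factor gene, and then TYW3, a gene of tRNA wybutosine synthesis. TIF4632 had scaled signals of 33.8, 39.8 and 31.6 on the control, 7.5 µM and 15 µM arrays, and TYW3 had 45.6, 56.2 and 41.8. In both the 7.5 µM array was the highest and the 15 µM array the lowest, as for RPT6, with log2 ratios between the doses of -0.33 and -0.43. On the other side lies ALG13, a gene of lipid-linked oligosaccharide synthesis, with 36.9, 35.2 and 32.2 and a ratio between the doses of -0.13. The gene beyond it is a tRNA gene with no probe set of its own in the annotation.

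The pattern of RPT6 over the 3 arrays was compared with that of 4184 other genes above the floor on every array, by the Euclidean distance between log2 signals centred on each gene's mean. The nearest was MPC1, which encodes part of the carrier that brings pyruvate into mitochondria, at a distance of 0.20, with scaled signals of 113, 163 and 60.2 on the control, 7.5 µM and 15 µM arrays. Next came KRE33 (0.38), a gene of ribosomal RNA acetylation, MRPS28 (0.40), a mitochondrial ribosomal protein gene, ATR1 (0.42), a multidrug efflux gene, and TRZ1 (0.45), a gene of tRNA end processing. All 5 were highest on the 7.5 µM array except TRZ1, which was highest on the control array, and all 5 were lowest at 15 µM. The nearest subunit was RPN13, at a distance of 0.77, with 92 genes, RPT6 itself included, nearer than it. Only 3 arrays define these distances.

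The non-ATPase subunits of the base are Rpn1 and Rpn2, large scaffolds, and Rpn10 and Rpn13, receptors for ubiquitin. RPN13 had scaled signals of 237 on the control array, 285 at 7.5 µM and 187 at 15 µM. As for RPT6, the 7.5 µM array was the highest and the 15 µM array the lowest. The fold was smaller, 1.52 between the doses (log2 ratio -0.60) and 1.26 lower at 15 µM than on the control array.

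RPN1, whose product also binds shuttle factors and the deubiquitinase Ubp6, had 146, 213 and 169 on the control, 7.5 µM and 15 µM arrays. RPN2, whose product holds Rpn13, had 268, 333 and 321. In both the control array was the lowest and the 7.5 µM array the highest, with log2 ratios at 7.5 µM over control of 0.54 and 0.31. RPN10 had 250, 225 and 257, with the 7.5 µM array lowest and all 3 arrays close. The median of the 4 genes was 0.13 at 15 µM and 0.29 at 7.5 µM over control.

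Relative to the median gene, the 8 lid genes among the members stayed close to the control. They ran from -0.17 (RPN8) to 0.34 (RPN6) at 15 µM over control and from -0.07 (RPN5) to 0.28 (RPN9) at 7.5 µM, with medians of 0.02 and 0.05. SEM1, a small lid subunit gene read with the related genes below, lay outside both ranges. It was 1.39-fold higher at 15 µM and 1.56-fold higher at 7.5 µM. RPN11, which encodes the deubiquitinase of the lid, had scaled signals of 272, 288 and 314 on the control, 7.5 µM and 15 µM arrays. RPN8, which encodes its partner, had 198, 198 and 175. RPN6, whose product braces the lid against the core particle, had 242, 259 and 306. RPN11 and RPN6 were thus highest at 15 µM and RPN8 was lowest there.

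RPN3, RPN5, RPN7, RPN9 and RPN12 encode scaffold subunits of the lid, and Rpn12 is the last to join it. RPN9 had 166, 202 and 199 on the control, 7.5 µM and 15 µM arrays, and RPN3 had 182, 199 and 204, both lowest on the control array. RPN5 had 167, 159 and 152, and RPN7 had 249, 240 and 229, both lowest at 15 µM. RPN12 had 115, 117 and 105. The largest fold among these 5 genes was 1.21, of RPN9 at 7.5 µM over control.

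In the alpha ring, SCL1 and PUP2 stood apart from the rest. SCL1 had scaled signals of 126 on the control array, 258 at 7.5 µM and 176 at 15 µM. PUP2 had 89.6, 164 and 126 in the same order. In both genes the control array was the lowest and the 7.5 µM array the highest, with 15 µM between them. SCL1 was 2.05-fold higher at 7.5 µM (log2 ratio 1.03) and 1.4-fold higher at 15 µM (0.48). PUP2 was 1.83-fold higher at 7.5 µM (0.87) and 1.41-fold higher at 15 µM (0.49). Both are essential structural subunits of the ring.

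PRE10 differed the other way. It had 404 on the control array, 284 at 7.5 µM and 327 at 15 µM. The control array was the highest, and the log2 ratios were -0.51 at 7.5 µM and -0.31 at 15 µM. PRE9, the only alpha subunit gene that yeast can do without, had 252, 220 and 266 on the control, 7.5 µM and 15 µM arrays. PRE8 had 322, 338 and 347, PRE6 had 389, 410 and 370, and PRE5 had 238, 261 and 221. For these 4 genes the highest array was at most 1.21-fold above the lowest. The median of the 7 alpha genes was 0.08 at 15 µM and 0.07 at 7.5 µM over control.

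The beta ring carries the cutting sites, in the products of PRE2 (cleavage after hydrophobic residues), PUP1 (after basic residues) and PRE3 (after acidic residues). PRE2 had scaled signals of 473, 453 and 429 on the control, 7.5 µM and 15 µM arrays. PUP1 had 298, 345 and 286, and PRE3 had 355, 373 and 312 on its brightest probe set. In all 3 the 15 µM array was the lowest, by at most 1.21-fold from the highest array. The other probe sets of PRE3 had log2 ratios between the doses of -0.41 and -0.17, where the brightest had -0.26. At 15 µM over control they had -0.22 and 0.002 in the same order, so the 15 µM array was not the lowest on the last.

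The other beta genes encode subunits without a cutting site. PUP3 had 463, 350 and 393 on the control, 7.5 µM and 15 µM arrays, the control array being the highest, with a log2 ratio at 7.5 µM of -0.40. PRE7 had 272, 231 and 241, also highest on the control array. PRE1 had 365, 341 and 381, and PRE4 had 377, 398 and 397, with all 3 arrays close. At 15 µM over control 2 of the 7 beta genes lay above 0, where 46.3% of all genes did. Their median was -0.14 and their range from -0.24 to 0.08. At 7.5 µM 3 of 7 lay above 0, where 44.8% of all genes did, with a median of -0.06.

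**Figure D3:**
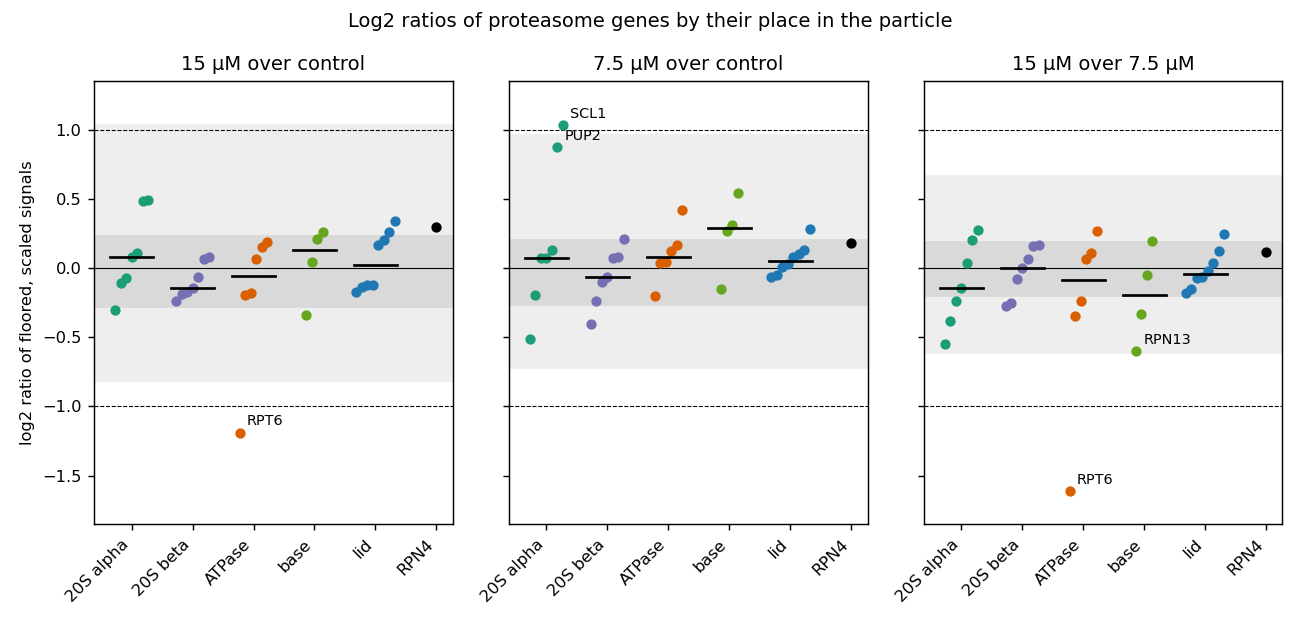
Log2 ratio of each gene (points, vertical axis) by its place in the particle, in 1 panel per comparison. Black bars are class medians, the dark and light bands hold the middle 50% and 95% of all genes, and dashed lines mark 2-fold. RPT6 lies below the 2-fold line in both comparisons that include the 15 µM array, and SCL1 lies just above it at 7.5 µM. RPN4 lies above the dark band at 15 µM over control and within it in the other panels.

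In 16 of 32 subunits the 7.5 µM array was the brightest of the 3, against 27.2% of all genes. The 15 µM array was the brightest in 10, against 28.8%, and the control array in 6, against 39%. This order depends on the scaling. With the arrays scaled on the spikes, all 32 lay above the control at 7.5 µM, where the median of all genes was 0.59. Between the doses 20 of 32 were then higher at 15 µM, in place of 13. The median of all genes was 0.14 and that of the subunits 0.09. With the array median, the sizes behind the order were small. The middle 50% of the subunits ran from -0.06 to 0.18 at 7.5 µM over control and from -0.24 to 0.11 between the doses.

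Genes that build the proteasome or bind to it were read from a list of 18, all of them above the floor on at least 1 array. With the array median, none reached 2-fold in any comparison. The shares of all genes given above for that scaling come to less than 1 gene in a list of this size, in either direction. The lists of related genes were not recomputed with the arrays scaled on the spikes. Their median log2 ratio was 0.13 at 15 µM and 0.17 at 7.5 µM over control, with 13 of 18 above 0 at each dose, where 46.3% and 44.8% of all genes were. POC4, a chaperone gene of the alpha ring, had scaled signals of 100, 121 and 191 on the control, 7.5 µM and 15 µM arrays. It was highest at 15 µM, by 1.91-fold over the control. IRC25, whose product is the partner of Poc4, had 45.2, 46.4 and 35.5, and was lowest at 15 µM.

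UBP6, the deubiquitinase bound to the base, had 158, 265 and 238 on the control, 7.5 µM and 15 µM arrays, with folds of 1.68 at 7.5 µM and 1.51 at 15 µM over the control. SEM1, a small lid subunit, had 95.6, 149 and 133. SPG5 and FUB1, both linked to the proteasome in yeast, were 1.52-fold higher each at 7.5 µM. These 4 genes, UBP6, SEM1, SPG5 and FUB1, were those of the 18 at least 1.5-fold higher at 7.5 µM, where 8.62% of all genes were, and all 4 were lowest on the control array. TMA17, a base chaperone gene, had 66.6, 51.2 and 82.0, lowest at 7.5 µM and highest at 15 µM. The chaperones that bind the tails of single ATPases gave low signals or small ratios. RPN14, whose product binds Rpt6, had 35.7, 27.1 and 33.3, and NAS6, whose product binds Rpt3, had 141, 125 and 149. UMP1, the maturation factor of the core particle, had 63.8, 69.3 and 71.6.

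Of 26 genes of the ubiquitin system and Cdc48, 24 had a probe set of their own above the floor, and RPL40A and RPL40B were not analysed here. With the array median none reached 2-fold, where 2.73% of all genes were higher and 1.14% lower at 15 µM, and 1.99% and 0.614% at 7.5 µM. Those shares are again under 1 gene in a list of 24 in each direction. The median was 0.12 at 15 µM and -0.05 at 7.5 µM over control. UBI4, the polyubiquitin gene of stress, had scaled signals of 201, 159 and 246 on the control, 7.5 µM and 15 µM arrays. RPS31, a fusion of ubiquitin to a ribosomal protein, had 2652, 2053 and 1601, lower at 15 µM by a log2 ratio of -0.73. RAD23, a shuttle that carries tagged proteins to the proteasome, had 118, 190 and 153, and was 1.61-fold higher at 7.5 µM. CDC48, the segregase ATPase, had 479, 685 and 590. Both RAD23 and CDC48 were lowest on the control array. UBR2 and MUB1, whose products tag Rpn4 for degradation, had log2 ratios at 15 µM of -0.25 and 0.16.

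Of 6 transcription factor genes known to act on RPN4 or the stress genes around it, MSN4 was at least 2.27-fold lower at 15 µM, with scaled signals of 41.4, 29.7 and 11.2 on the control, 7.5 µM and 15 µM arrays, the last under the floor. That is 1 of 6 genes, where 1.14% of all genes were 2-fold lower. These ratios are relative to the median gene, and whether MSN4 stays past 2-fold with the spikes was not computed. The other 5 were above the control at 15 µM, where 46.3% of all genes were, and none was 2-fold higher, where 2.73% were. PDR3 had 18.5, 30.5 and 34.6, and was 1.86-fold higher at 15 µM from a control signal near the floor. PDR1, the other regulator of drug resistance, had 70.9, 117 and 103, YAP1, the oxidative stress regulator, had 50.1, 69.6 and 66.1, and MSN2 had 73.4, 120 and 102. All 4 were lowest on the control array. HSF1, the heat shock regulator, had 67.8, 57.5 and 75.9.

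**Figure D4:**
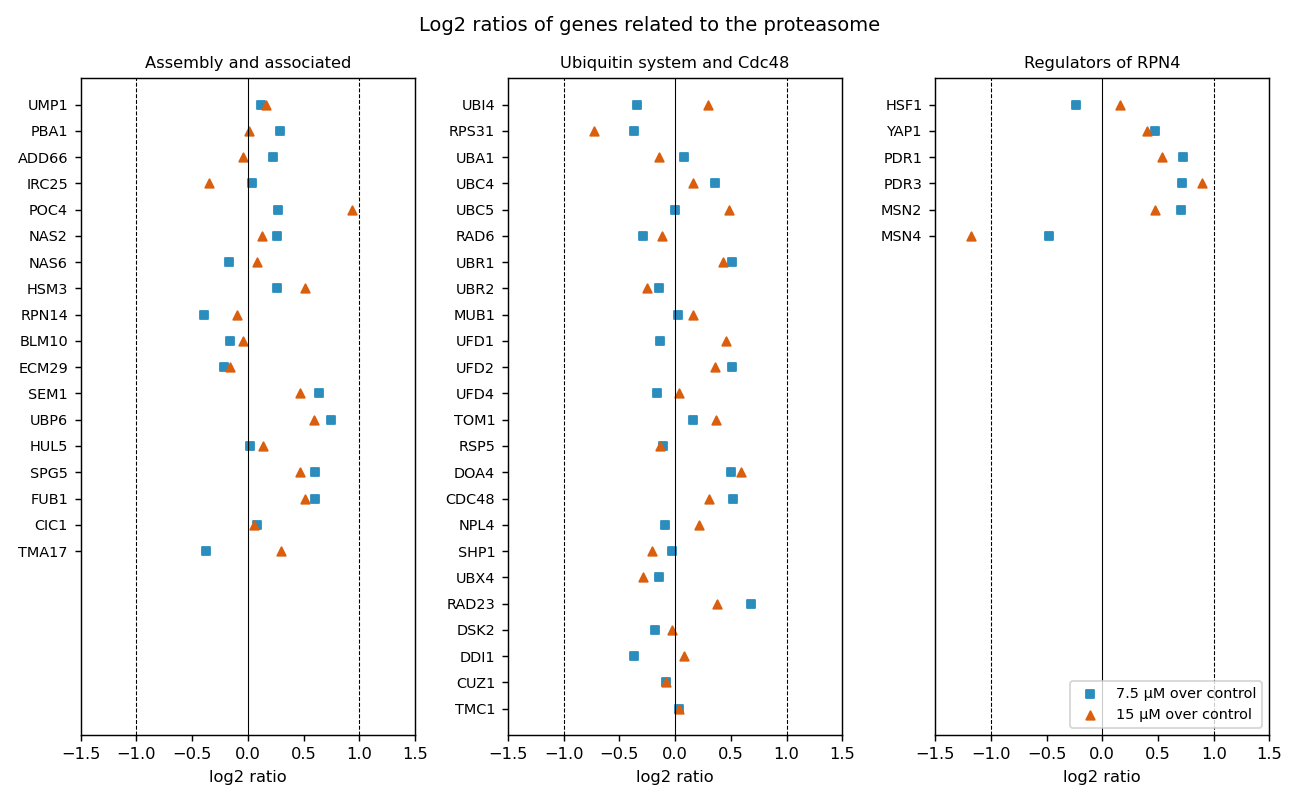
Log2 ratio (horizontal axis) at 7.5 µM (squares) and 15 µM (triangles) over control for 18 assembly and associated genes, 24 ubiquitin and Cdc48 genes and 6 regulator genes, in 1 panel each. Dashed lines mark 2-fold. With the arrays scaled on their medians, MSN4 is the 1 gene beyond a dashed line, as a lower bound, and POC4 and PDR3 come next at 15 µM.

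The place of RPT6 relative to the other subunits could move under only some of the alternatives. Scaling a whole array leaves it as it is, and the floors lie below every subunit on its brightest probe set. Under the 4 others, RPT6 minus the median of the other subunits at 15 µM over control was -1.18 with quantile normalisation, -1.24 with lowess centring, -1.23 with a pseudocount and -1.13 with probe sets averaged. With the arrays scaled on the spikes its log2 ratio at 15 µM over control was -0.35, short of 2-fold, while the other 31 ran from 0.50 to 1.33. Between the doses it was then -1.46, still past 2-fold.

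**Figure D5:**
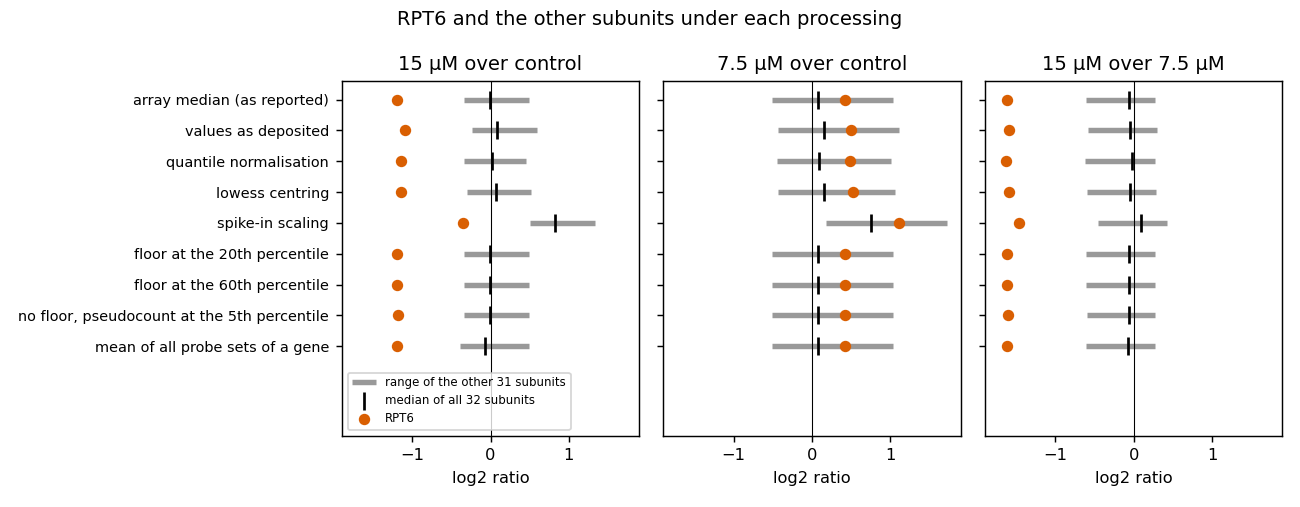
Log2 ratio (horizontal axis) of RPT6 (points), of the median of the 32 subunits (ticks) and the range of the other 31 (grey bars) under each processing, in 1 panel per comparison. RPT6 lies outside the grey bar in every row of the panels that include the 15 µM array, and inside it in every row at 7.5 µM over control.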

How the data were processed

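The values are deposited intensities, linear summary signals of each probe set that the authors made. How they were summarised, background-corrected and scaled is not stated by the labels or the file. Trimmed by 2% at each end, the mean intensity was 100.1 on all 3 arrays, so differences in total messenger RNA are hidden. The ratio of the 3' to the 5' control probe set of SPT15 was 3.30, 2.35 and 2.48 on the control, 7.5 µM and 15 µM arrays. That of ACT1 was 1.63, 1.80 and 1.47 in the same order. The part of such differences in the ratios to the control was not tested. Of 9335 probe sets, 60 were controls. In the platform annotation 6504 had 1 gene, 328 had several and 2443 had no entry. All 6504 identifiers matched the R64 gene table, used for symbols and neighbours. No sequences are shown.

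Arrays were scaled to a common median over non-control probe sets (factors 0.974, 0.987 and 1.04 for 15 µM, 7.5 µM and control), floored and put on the log2 scale. The brightest probe set of a gene over the 3 arrays was used. The steps were tested on simulated data. The rule for named genes took all members, listed related genes (those at 2-fold and a few others by role), the RPT6 neighbours (2 on each side) and the 5 genes most like RPT6. More related genes than that rule allows were named after their values were seen. Members, lists and rules were chosen with earlier results of these data known. The alternatives took unscaled values, quantile normalisation, spike scaling, lowess centring (span 0.3), a floor at the 20th or the 60th percentile, a pseudocount at the 5th percentile without a floor, or averaged probe sets. The work was done in Python 3.11.15 with pandas 2.3.3, numpy 2.4.6, scipy 1.17.1, matplotlib 3.10.9 and statsmodels 0.14.6.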

Additional observations from a re-analysis of the deposited data

Results flagged for a closer look

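In 5 of 81 genes, the 33 described here and 48 related ones, the doses lay on opposite sides of the control and at least 1.5-fold apart, which is 6.17%, where 3.71% of all 4723 genes did so. These differences were not tested, since each dose has 1 array, and both doses are read against the same control array. RPT6 had a log2 ratio of -1.61 at 15 µM over 7.5 µM, with -1.19 and 0.42 for the doses over control. RPN13, the ubiquitin receptor gene, had -0.60, with -0.34 and 0.27. The other 3 were higher at 15 µM. TMA17, the base chaperone gene, had 0.68 between the doses, with 0.30 and -0.38 over control. UBI4, the polyubiquitin gene, had 0.63, with 0.30 and -0.34. UFD1, a Cdc48 cofactor gene, had 0.59, with 0.46 and -0.14, from signals near the floor.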

How the results depend on the processing

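Of 192 values recomputed under 8 alternatives, 176 stayed within the margin set for them, which was 0.1 log2 units for a median, the pooled SD between probe sets for 1 gene, and 1.5 times for a count. The 176 include values that could not move. The floors lie below every subunit and RPN4 on their brightest probe sets, so nothing could move under the 2 floors. RPT6 and RPN4 have 1 probe set each, so their own ratios could not move with probe sets averaged. A change of sign was looked for only in values of at least 2-fold, all of them of RPT6, and none was found. Smaller values did change sign. The subunit median at 15 µM over control, -0.01, became 0.09 with the values as deposited. It became 0.02 with quantile normalisation and 0.06 with lowess centring, and was also above 0 with the spikes. Between the doses the subunit median changed sign with the spikes alone. Spike scaling moved 14 of the 16 values beyond their margin. At 15 µM over control it gave a subunit median of 0.83, with 29 subunits at least 1.5-fold and 9 at least 2-fold higher, 0 lower at either size, RPT6 at -0.35 and RPN4 at 1.13. At 7.5 µM it gave 0.76, with 26 and 4 higher, RPT6 at 1.11 and RPN4 at 0.87. Between the doses it gave a median of 0.092, with 1 subunit at least 1.5-fold lower in place of 2. Spike scaling moved all genes too. Their median was then 0.74 at 15 µM over control, 0.59 at 7.5 µM over control and 0.14 between the doses. Of 4829 genes, 1288 were then at least 2-fold higher at 15 µM over control and 798 at 7.5 µM. With the values as deposited, 1 subunit was at least 1.5-fold higher at 15 µM in place of 0, and 1 was lower between the doses in place of 2. RPT6 minus the median of the other subunits could not move under the 2 array-wide scalings or the 2 floors. Under the other 4 it ran from -1.24 to -1.13 at 15 µM over control. No paired analysis was possible because each condition has 1 array.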

Other observations

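RPT6 and MPC1 had the lowest log2 ratios of all genes at 15 µM over 7.5 µM, -1.61 and -1.44, and they lie on the same chromosome with 31 annotated genes between them, as was seen only after their values were known. Of those, 27 were measured above the floor. They did not share the difference. Their median at 15 µM over 7.5 µM was 0.17, none was 1.5-fold lower, the lowest was KXD1 at -0.56 and the highest DUO1 at 1.01. Each of RPT6 and MPC1 has 1 probe set in the annotation.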
